A study of Mus musculus with 8 samples.

Results

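Described here are 31 mouse genes of cholesterol and fatty acid synthesis. They were taken by name, not by measured value, from a list of sterol and fatty acid genes under the transcription factors SREBP-1 and SREBP-2. The choice was made with earlier results of these data known. The array carried all 31, with 43 probes among the 55681 probes that are not controls. All 31 were well above background on all 8 arrays and were among the 18771 genes tested. They comprise 5 regulators, 8 enzymes from acetyl-CoA to squalene, 9 enzymes from squalene to cholesterol, 1 sterol carrier, 4 enzymes that make and lengthen saturated fatty acids and 4 desaturases.

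The study asked which genes respond to miR-125b in mouse B-cell leukaemia. Its 4 groups, with 2 arrays each, are 70Z/3 cells with the control duplex miR-Neg, 70Z/3 cells with a synthetic pre-miR-125b duplex, and 18-81 cells with either duplex. Both are established mouse pre-B lines, and the labels describe 70Z/3 as leukaemic pre-B lymphoblasts and 18-81 as pre-B cells transformed by Abelson virus, so that each kind of cell is represented by 1 line. All 4 groups received a duplex at 10 nM with a lipid reagent, had their medium changed at 8 h and were harvested at 48 h, and the design text names 2 independent experiments without saying which sample belongs to which. No untransfected cells were among the samples, and beyond the 2 experiments no label says how the replicates were cultured, so p-values measure the spread between these samples.

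Cells make cholesterol from acetyl-CoA through mevalonate and squalene, and fatty acids from acetyl-CoA through malonyl-CoA. SREBP-2 mainly drives the sterol genes and SREBP-1 mainly the fatty acid genes. When sterols are scarce, Scap carries the SREBP precursors from the endoplasmic reticulum to the Golgi for cleavage, and when sterols are plentiful the Insig proteins hold Scap back, so the genes of both branches often move together.

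The duplex under study carries the miR-125b sequence, shown with bases 2 to 8, the seed that pairs with targets, in capitals.
mmu-miR-125b-5p: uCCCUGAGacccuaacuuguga

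Promoters were looked at because these genes are known for a shared regulator. RefSeq promoters (GRCm38.p6, 250 bases before the start, both strands) were found for 24 of the 31 genes, and not for Fads1, Fdft1, Fdps, Scd1, Scd2, Sqle and Stard4. The sterol regulatory element searched as TCACNCCAC was found in 1 of the 24, Hmgcs1 (4.17%), against 1.22% of 27025 genes. The NF-Y box CCAAT was found in 18 of 24 (75%, against 37.5% of all genes) and the GC box GGGCGG in 20 of 24 (83.3%, against 35.4%). A match is only a match of letters. The 150 bases before the start are printed for Hmgcs1, which holds the exact element, and for 4 genes on which the results below turn, with every match of the 3 motifs in capitals, read on either strand. The windows of Fasn and of Hmgcs1 hold NF-Y boxes, in Fasn as 3 matches of which a pair overlaps, while the Elovl6 window holds none of the 3 motifs.
Hmgcs1, chr13:119690201-119690350, plus strand: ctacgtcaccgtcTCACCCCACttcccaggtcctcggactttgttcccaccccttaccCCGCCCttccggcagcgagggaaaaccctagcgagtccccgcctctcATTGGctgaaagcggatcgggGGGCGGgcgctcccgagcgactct
Fasn, chr11:120824548-120824697, minus strand: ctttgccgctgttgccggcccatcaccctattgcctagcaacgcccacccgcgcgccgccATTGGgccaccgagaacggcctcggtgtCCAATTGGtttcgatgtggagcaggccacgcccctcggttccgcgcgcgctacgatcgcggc
Elovl6, chr3:129532236-129532385, plus strand: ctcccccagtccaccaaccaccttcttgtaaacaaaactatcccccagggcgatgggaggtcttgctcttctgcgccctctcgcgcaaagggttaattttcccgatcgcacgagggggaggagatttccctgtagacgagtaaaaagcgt
Acat2, chr17:12960726-12960875, minus strand: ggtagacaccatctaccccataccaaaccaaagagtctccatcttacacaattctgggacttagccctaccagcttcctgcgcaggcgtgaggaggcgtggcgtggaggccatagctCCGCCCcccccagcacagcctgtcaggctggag
Insig1, chr5:28071262-28071411, plus strand: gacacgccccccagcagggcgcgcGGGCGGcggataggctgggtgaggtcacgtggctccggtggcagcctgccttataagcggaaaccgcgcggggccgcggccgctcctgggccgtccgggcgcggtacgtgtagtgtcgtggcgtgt

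All values below are log2 of the array's processed intensity minus the 75th percentile of that array, called the relative level. The 8 arrays lay on 1 slide. Their 75th percentile was between 335.2 and 712.7 intensity units, and 38.0% to 45.1% of probes were well above background. The lowest of both values belonged to replicate 2 of 70Z/3 with miR-Neg, and within each group the replicate 2 array was the dimmer. The slide's first row held the replicate 1 arrays and its second row the replicate 2 arrays, so replicate number and row cannot be told apart. Of 14 markers of B-cell precursors, 12 were above background on both arrays of every group, and Rag1 and Rag2 on none. Many markers of other cells were measured too. By group, 6 to 9 of 10 T-cell markers, Cd4 and Lck among them, were above background on both arrays. So were 4 to 6 of 8 myeloid markers and 2 of 6 stromal markers. Cd8a, a T-cell gene, Cd14, a monocyte gene, and Col3a1, a stromal collagen gene, were above background on no array.

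The 2 cell lines differed in a few of the 31 genes, with Fasn and Scd2 higher in 18-81 cells and Acat2 and the regulator Insig1 lower. Each branch held differences of both signs, from -0.69 to 1.69 in the 8 fatty acid genes and from -1.19 to 0.77 in the 18 sterol genes. With both duplexes averaged, 4 of the 31 genes passed an adjusted p of 0.05 in limma (Benjamini-Hochberg over all genes), where 31.9% of all 18771 genes did. By direction, 2 were higher in 18-81, where 15.8% of all genes were, and 2 were lower, where 16.1% were. At an unadjusted p under 0.05 there were 10 of 31, beside 41.5% of all genes. The median of the 31 differences was -0.02, beside 0.02 for all genes. All 31 genes were above background on all 8 arrays, unlike many of the genes behind that share. With only probes above background on all 8 arrays, 24.1% of 14647 genes passed, and the same 4 of the 31. The share of the 31 genes called was below both shares, by less in the second, and the gap was not tested. In 19 of the 31 genes the 95% interval of the difference lay within 2-fold, as it did for 41.1% of all genes.

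**Figure D1:**
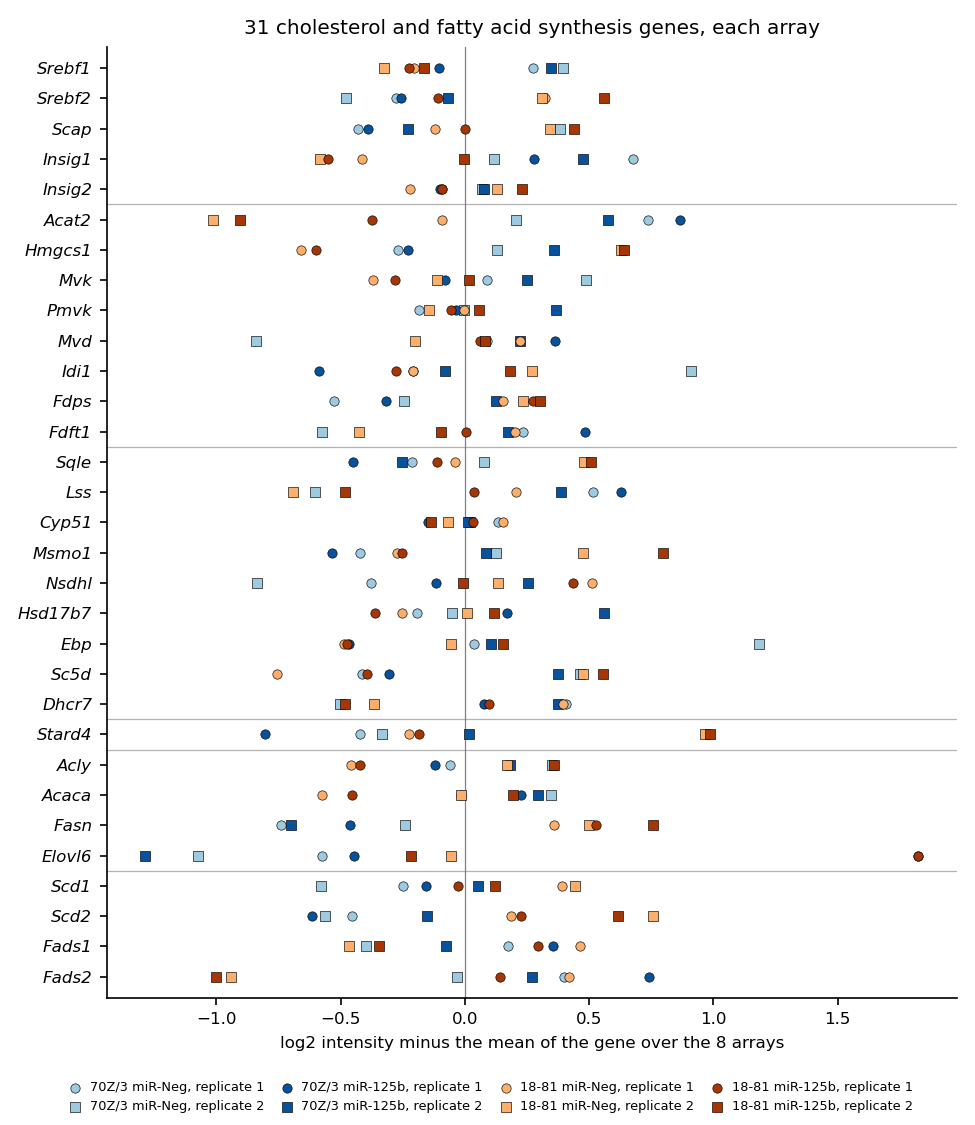
Relative level of the 31 genes on each of the 8 arrays, as the difference in log2 from the gene's own mean over the arrays. Colours mark the 4 groups, circles replicate 1 and squares replicate 2, and lines part the genes by role. The 2 arrays of 18-81 at replicate 1 stand far to the right for Elovl6, and the 4 arrays of 18-81 lie to the right of all 4 of 70Z/3 for Fasn, Scd2, Elovl6 and Fdps.

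These are bulk samples, so fewer cells with an RNA and less of it per cell cannot be told apart. Among the regulators, Insig1, which holds Scap and the SREBP precursors in the endoplasmic reticulum, was lower in 18-81 cells. Its relative level in 70Z/3 was 1.58 and 1.02 with miR-Neg and 1.18 and 1.38 with miR-125b. In 18-81 it was 0.49 and 0.32 with miR-Neg and 0.35 and 0.90 with miR-125b. The 4 values of 18-81 all lay below the 4 of 70Z/3, and the difference was -0.77 ± 0.23 (SE; 1.71-fold lower; limma adjusted p = 0.034). The call did not hold with certain arrays left out in turn. Without either replicate 1 array of 18-81, replicate 2 of 18-81 with miR-Neg, replicate 1 of 70Z/3 with miR-Neg, or either array of 70Z/3 with miR-125b, the difference was -0.82 to -0.63 with an adjusted p of 0.0718 to 0.121.

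Srebf1, the gene of SREBP-1, had a relative level of -0.86 and -0.74 in 70Z/3 with miR-Neg and of -1.24 and -0.79 with miR-125b. In 18-81 it was -1.34 and -1.46 with miR-Neg and -1.36 and -1.30 with miR-125b. All 4 arrays of 18-81 lay below those of 70Z/3, yet the difference of -0.45 ± 0.19 did not pass (adjusted p = 0.118). Srebf2, the gene of SREBP-2, differed in the other direction by 0.54 ± 0.22 (adjusted p = 0.0978). Scap differed by 0.33 ± 0.26 and Insig2, the second Insig gene, by 0.02 ± 0.20, neither past the threshold.

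Of the 8 enzymes from acetyl-CoA to squalene, Acat2 alone passed. Acat2 encodes the cytosolic acetoacetyl-CoA thiolase, the first step of the pathway, and is not the sterol esterase gene Soat2 that shares this alias. Its probe lies at chr17:13136482-13136541 in mm9, beside the related gene Acat3, and binding of Acat3 RNA to it was not tested. In 70Z/3 its relative level was -0.60 and -1.13 with miR-Neg and -0.47 and -0.76 with miR-125b. In 18-81 it was -1.43 and -2.35 with miR-Neg and -1.71 and -2.24 with miR-125b. Each 18-81 array was below every 70Z/3 array, and the difference was -1.19 ± 0.28 (2.29-fold lower; adjusted p = 0.013; -1.12 and adjusted p = 0.0534 without replicate 1 of 70Z/3 with miR-125b).

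Fdps, which makes farnesyl pyrophosphate, was higher on all 4 arrays of 18-81 (7.31 to 7.46) than on any of 70Z/3 (6.63 to 7.28). The gap between the closest of these arrays was small, and its difference of 0.48 ± 0.20 did not pass (adjusted p = 0.107). The other 6 enzymes of this stretch, Hmgcs1, Mvk, Pmvk, Mvd, Idi1 and Fdft1, differed by -0.37 to 0.08 and had overlapping lines. Hmgcs1, which makes HMG-CoA, differed by 0.00 ± 0.39.

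None of the 9 enzymes from squalene to cholesterol passed in limma, and 1 had an unadjusted p under 0.05. That gene was Nsdhl, a sterol dehydrogenase, at 0.54 ± 0.23 (adjusted p = 0.114). A dimmer second probe of Nsdhl differed by -0.04, so the higher level in 18-81 rested on 1 of its 2 probes. Sqle, the squalene epoxidase, differed by 0.42 ± 0.24, and Lss, Cyp51, Msmo1, Hsd17b7, Ebp, Sc5d and Dhcr7 by -0.46 to 0.38. Stard4, a carrier that moves cholesterol between membranes, differed by 0.77 ± 0.38 (adjusted p = 0.165). Its relative level was 2.86 to 3.68 in 70Z/3, 3.44 and 3.48 on the replicate 1 arrays of 18-81, and 4.63 and 4.65 on the replicate 2 arrays. A second Stard4 probe, looked up after its values were seen, gave the same difference of 0.77 with an adjusted p of 0.0378 in a limma fit of single probes.

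Fasn, the fatty acid synthase, showed the firmest difference between the lines. Its relative level in 70Z/3 was -0.24 and 0.26 with miR-Neg and 0.04 and -0.20 with miR-125b. In 18-81 it was 0.86 and 1.00 with miR-Neg and 1.03 and 1.26 with miR-125b. The lowest 18-81 array was above the highest 70Z/3 array, and the difference was 1.07 ± 0.21 (2.10-fold higher; adjusted p = 0.00494). It stayed past the threshold with each of the 8 arrays left out in turn, at 0.95 to 1.20. The probe lies at chr11:120667666-120667725 in mm9.

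Elovl6, which lengthens palmitate to stearate, had the largest difference of the 31 genes and the widest spread within a line. Its relative level in 70Z/3 was 2.99 and 2.49 with miR-Neg and 3.12 and 2.28 with miR-125b. In 18-81 it was 5.39 and 3.51 with miR-Neg and 5.39 and 3.35 with miR-125b. Both replicate 1 arrays of 18-81 stood well above both replicate 2 arrays, and all 4 stood above 70Z/3. The difference of 1.69 ± 0.55 (3.23-fold) missed the threshold at an adjusted p of 0.051. Acly, which supplies cytosolic acetyl-CoA, and Acaca, which makes malonyl-CoA, differed by -0.17 ± 0.27 and -0.42 ± 0.24, so the 4 enzymes of this step did not share a direction.

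Scd2, a stearoyl-CoA desaturase, was the member of the desaturases that passed. Its relative level was 6.54 to 7.00 on the arrays of 70Z/3 and 7.34, 7.91, 7.38 and 7.77 on those of 18-81. The lines did not overlap, and the difference was 0.89 ± 0.23 (1.86-fold higher; adjusted p = 0.0194). Without either replicate 2 array of 18-81, or replicate 1 of 70Z/3 with miR-125b, it was 0.75 to 0.80 with an adjusted p of 0.0694 to 0.087. Scd1, its close relative, differed by 0.46 ± 0.19 (adjusted p = 0.106). Fads1 and Fads2, the desaturases of polyunsaturated fatty acids, differed by -0.03 ± 0.30 and -0.69 ± 0.38.

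Counting arrays in place of tests gave a like picture. In Fdps, Fasn, Elovl6 and Scd2 all 4 arrays of 18-81 lay above all 4 of 70Z/3, that is in 4 of 31 genes, beside 18.8% of all genes. In Srebf1, Insig1 and Acat2 all 4 lay below, in 3 of 31, beside 18.1% of all genes.

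**Figure D2:**
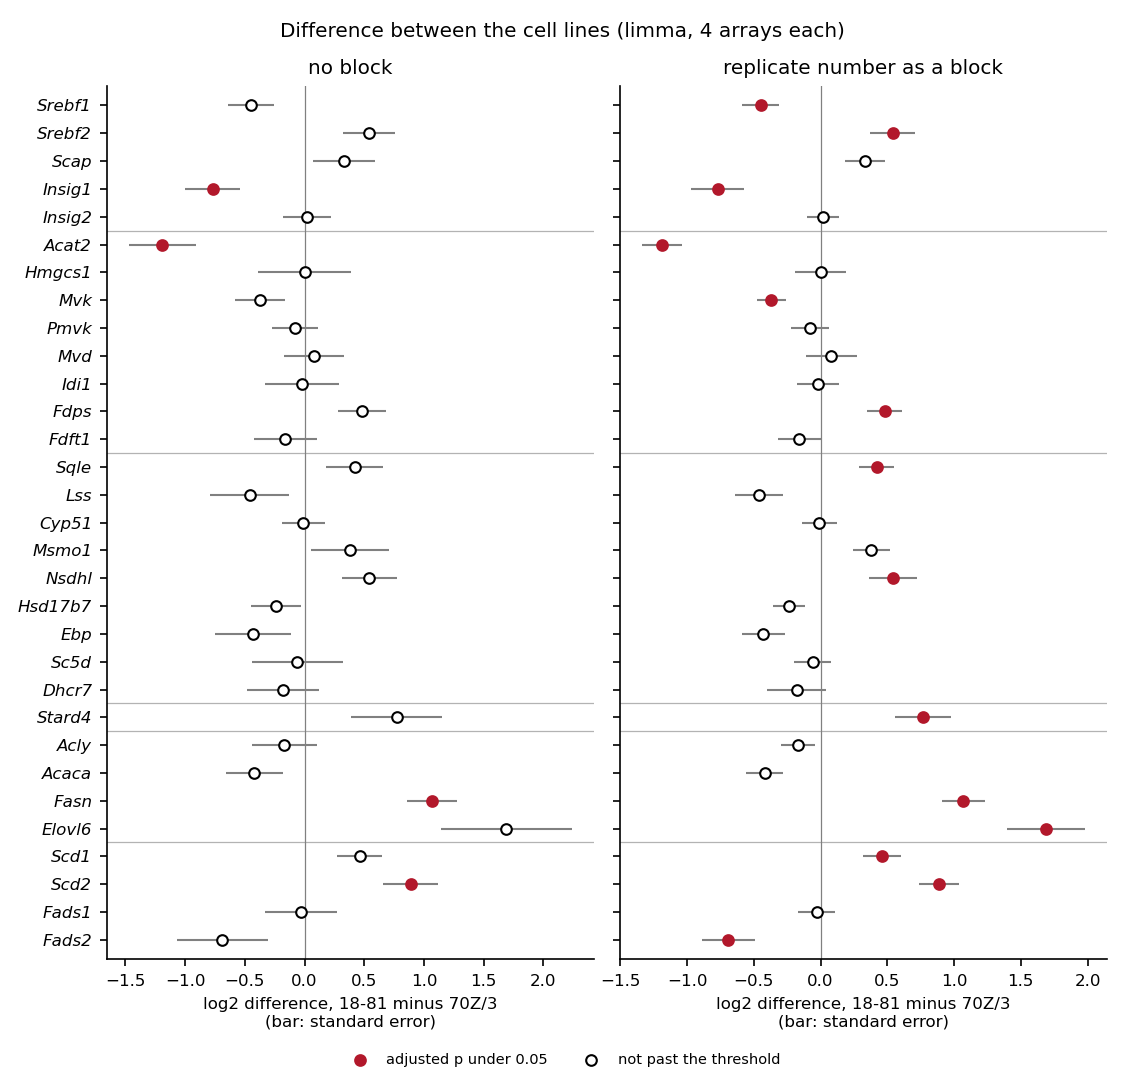
Log2 difference of each gene, 18-81 minus 70Z/3 over both duplexes, with its standard error from limma, without (left) and with (right) the replicate number as a block. Filled points passed an adjusted p of 0.05, 4 genes on the left and 14 on the right, and the differences themselves are the same in both panels.

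Same-numbered arrays of the 4 groups deviated together, and a block for that number left a smaller spread. Under that block 14 of the 31 genes passed, 9 higher and 5 lower in 18-81, where 48.1% of all genes did. To the 4 genes above it added Srebf2, Fdps, Sqle, Nsdhl, Stard4, Elovl6 and Scd1 on the higher side and Srebf1, Mvk and Fads2 on the lower side. Elovl6 then had a limma adjusted p of 0.0047, Srebf1 of 0.039, Srebf2 of 0.0441, Fdps of 0.0256, Scd1 of 0.038 and Stard4 of 0.0278. The split also moved with the scaling. With a normexp background correction 6 genes were higher and 2 lower (33.2% of all genes called), and after quantile normalization 2 were higher and 4 lower (36.1% of all genes called).

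**Figure D3:**
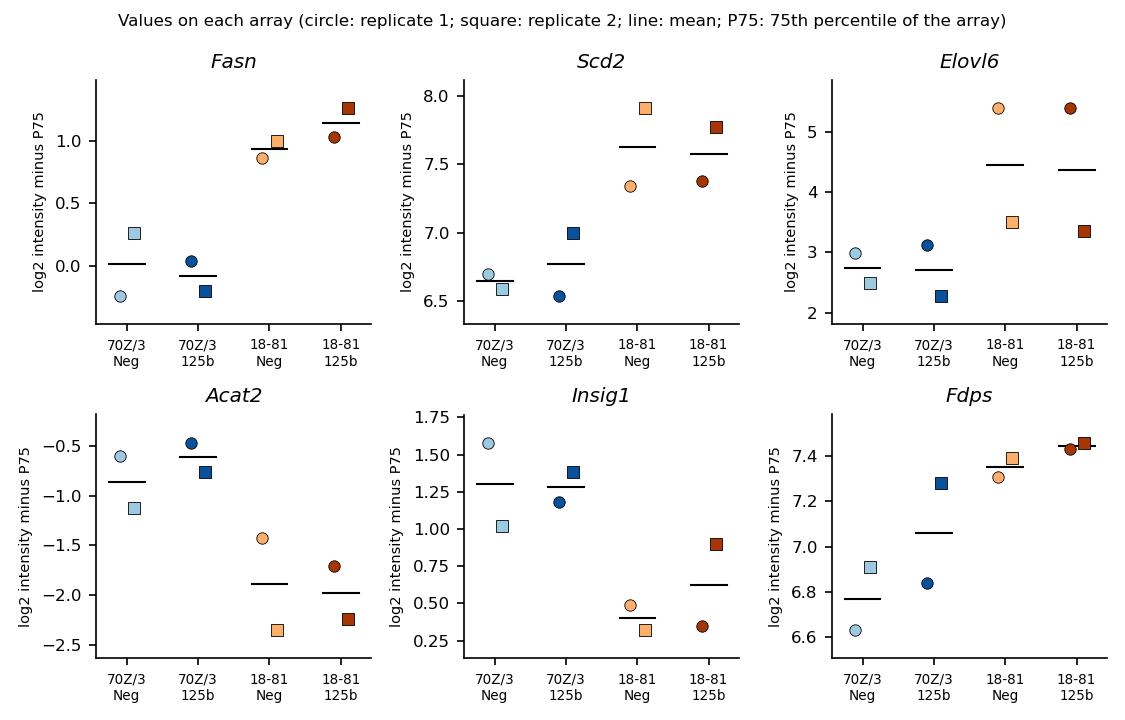
Relative level of Fasn, Scd2, Elovl6, Acat2, Insig1 and Fdps on each array, by group. Circles are replicate 1, squares replicate 2 and lines group means, and each panel has its own axis. In all 6 genes the arrays of 18-81 are apart from those of 70Z/3, and for Fdps the gap is narrow (7.28 against 7.31).

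Taken under each duplex by itself, with 2 arrays a group, fewer genes passed. With miR-Neg none of the 31 passed, where 21.7% of all genes did (9.93% higher and 11.7% lower), and 6 had an unadjusted limma p under 0.05, where 32.8% of all genes had. The smallest p-values there were for Fasn at 0.92 ± 0.29 (adjusted p = 0.0613), Scd1 at 0.83 ± 0.27 (adjusted p = 0.0658) and Scd2 at 0.98 ± 0.33 (adjusted p = 0.0711). With miR-125b 2 of 31 passed, where 21.3% of all genes did (9.9% higher and 11.4% lower), and 3 had an unadjusted p under 0.05, where 32.4% of all genes had. These were Fasn at 1.22 ± 0.29 (adjusted p = 0.0195) and Acat2 at -1.36 ± 0.40 (adjusted p = 0.0452), and leaving out 1 array gave 0 to 2 calls. No gene passed in this fit without either array of 70Z/3 with miR-125b or replicate 1 of 18-81 with miR-125b, and Elovl6 alone passed without replicate 2 of 18-81 with miR-125b. With the replicate block 8 genes passed under miR-Neg (36.2% of all genes) and 5 under miR-125b (36.3% of all genes). Acat2, Fasn, Elovl6 and Scd2 passed under both.

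The other genes of these pathways were taken from 3 lists. From the list of further sterol synthesis and uptake genes, 1 higher and 1 lower gene are given. Tm7sf2, a sterol reductase gene, was higher in 18-81 by 4.65 ± 0.63 (adjusted p = 0.000667), on levels of -4.55 to -1.37 in 70Z/3 and 2.09 to 2.44 in 18-81, and 3 of the 4 arrays of 70Z/3 were above background. Lbr, which encodes a nuclear envelope protein with the same reductase activity, was lower by 0.99 on the log2 scale (-0.99 ± 0.24; adjusted p = 0.015).

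Of 12 genes of sterol efflux and of the liver X receptors 10 were measured. Of these 3 were higher and 1 lower in 18-81, where 15.8% and 16.1% of all genes were. Abcg1, which exports cholesterol, was higher by 4.66 ± 0.26 (adjusted p = 3.31e-06), and Nr1h3, which encodes the receptor LXR-alpha, by 1.22 ± 0.25 (adjusted p = 0.00676), with 3 of 4 arrays of 70Z/3 above background. Soat2, which esterifies sterols, was higher by 1.02 ± 0.30 (adjusted p = 0.035). Cyp27a1, the sterol 27-hydroxylase, was above background on all 4 arrays of 70Z/3 and on none of 18-81. It was at least 3.93-fold lower in 18-81 (measured means -2.43 and -6.51). The bound was set against the lowest level among probes well above background on each 18-81 array. Its test drew on values below background in 1 line, so its p-value is left out.

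Of 26 further fatty acid and lipid genes 24 were measured. Of these 2 were higher and 3 lower in 18-81, where 15.8% and 16.1% of all genes were. Acsl3, which activates fatty acids, was well above background on 1 of 4 arrays of 70Z/3 and on all 4 of 18-81. It was at least 62.7-fold higher in 18-81 by the same kind of bound (measured means -5.35 and 1.89). Its p-value is left out for the same reason as that of Cyp27a1. Elovl7, an elongase, was lower (-3.63 ± 0.28; adjusted p = 2.35e-05), as was Agpat2, which acylates lysophosphatidic acid (-2.14 ± 0.26; adjusted p = 0.000364). Lpin1, a phosphatidate phosphatase, was higher by 1.23 ± 0.24 (adjusted p = 0.00521), and Acacb, the mitochondrial acetyl-CoA carboxylase, was lower (-0.83 ± 0.22; adjusted p = 0.021). The differences of Tm7sf2, Abcg1, Cyp27a1, Acsl3, Elovl7 and Agpat2 were beyond the range of the 31 genes, which ran from -1.19 to 1.69. These genes were named for small p-values and the 31 were taken by name. Their larger differences therefore follow from that choice and do not compare the lists.

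The question of the study, the response to miR-125b, gave no call among these genes. In limma none of the 31 passed an adjusted p of 0.05 in 70Z/3, in 18-81 or averaged over both lines, nor in the difference between the lines' responses, and none of the 18771 genes did (0% in each). At an unadjusted p under 0.05 without a block none of the 31 passed in any of these comparisons, while 5.91% of all genes did in 70Z/3, 1.22% in 18-81, 2.68% on average and 3.28% in the difference. The replicate block changed no call at the adjusted threshold. At an unadjusted p under 0.05 that fit held 5 of the 31 genes in 70Z/3, Ebp, Idi1, Hsd17b7, Nsdhl and Mvd (20.8% of all genes; adjusted p of 0.206 to 0.232). It held none in 18-81 (2.85% of all genes) or on average (7.26%), and Ebp and Scd1 in the difference (13% of all genes; adjusted p = 0.38 for both). The 95% interval of the response lay within 2-fold for 13 of the 31 genes in 70Z/3 (30.8% of all genes), for 20 in 18-81 (51.8%) and for 26 on average (75.5%). With the replicate block these counts were 22, 30 and 31 of the 31 genes (57.7%, 77.1% and 87.3% of all genes).

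In 70Z/3 the median response of the 31 genes was 0.10 beside -0.13 for all genes, and 24 of 31 were above that median of all genes. The genes stood 0.12 above all genes in the pair of replicate 1 arrays and 0.50 above in the pair of replicate 2 arrays, the pair with the dim array. By branch, the 17 sterol enzymes had a median of 0.25, the 8 fatty acid genes of 0.11 and the 5 regulators of -0.02. Among the sterol enzymes it was 0.26 for the 8 up to squalene and 0.01 for the 9 from squalene to cholesterol. The 3 smallest p-values belonged to sterol enzymes of both directions. Nsdhl was 1.69 and 1.23 with miR-Neg and 1.95 and 2.32 with miR-125b, a difference of 0.67 ± 0.32 (adjusted p = 0.77), while its second probe gave -0.06. Mvd, the mevalonate diphosphate decarboxylase, was 3.41 and 2.48 with miR-Neg and 3.68 and 3.54 with miR-125b, a difference of 0.66 ± 0.36 (adjusted p = 0.77; 0.20 to 1.13 with 1 array left out). Ebp, the sterol isomerase, was 5.78 and 6.93 with miR-Neg and 5.28 and 5.85 with miR-125b, a difference of -0.79 ± 0.45 (adjusted p = 0.77; -1.36 to -0.22 with 1 array left out). In all 3 genes the miR-Neg array farther from the miR-125b arrays was the dim replicate 2 array. The 2 groups did not overlap in 7 of the 31 genes, beside 37.6% of all genes.

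Interferon response genes were measured on the same arrays. Of 20 such genes 11 were above background on both 70Z/3 arrays with miR-Neg and all 20 with miR-125b. Their median response in 70Z/3 was 1.95 above that of all genes, and none passed an adjusted p of 0.05 in limma. Genes not above background with miR-Neg could enter the test through the miR-125b group, where they were high. Unadjusted p-values are therefore not counted for this list. Their summed linear level, in units of the 75th percentile, was 47.7 to 69.4 with miR-Neg and 109 to 119 with miR-125b. In 18-81 that sum was 22.4 to 28.7 with miR-Neg and 24.9 to 27.0 with miR-125b, and 11 and 10 of the 20 genes were above background on neither array. The part of this response in the values of the sterol genes was not tested.

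**Figure D4:**
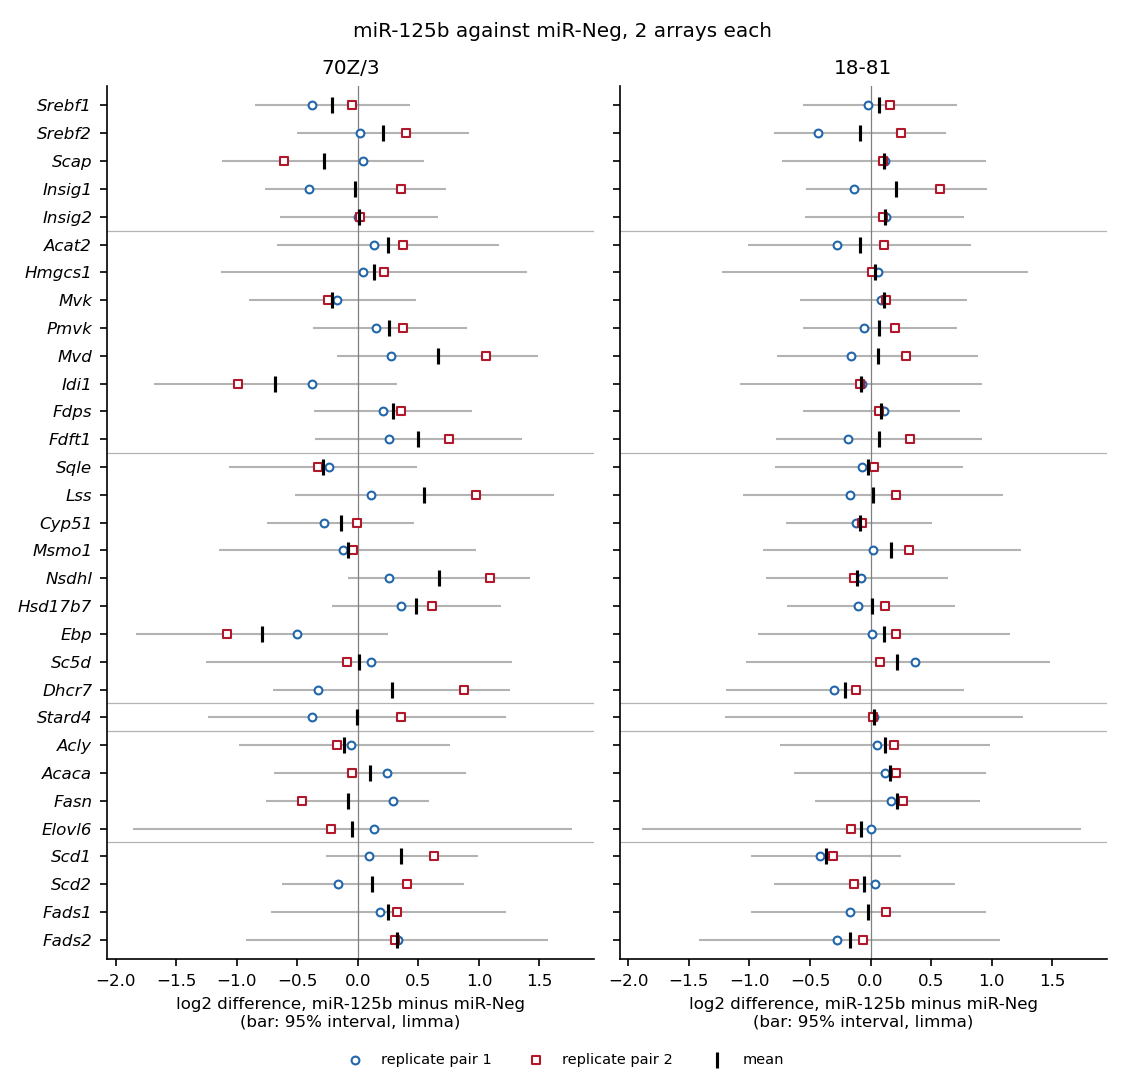
Log2 difference between miR-125b and miR-Neg for each gene in 70Z/3 (left) and 18-81 (right), with the 95% interval from limma. Open circles and squares are the 2 replicate pairs and ticks their means. None of the 31 intervals excludes 0 in either line, and the 2 pairs lie farther apart in 70Z/3 than in 18-81 for Mvd, Nsdhl and Lss.

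In 18-81 the median response of the 31 genes was 0.04 beside 0.03 for all genes, and 16 of 31 were above the median of all genes. Scd1 was 4.78 and 4.83 with miR-Neg and 4.36 and 4.51 with miR-125b, which do not overlap, a difference of -0.37 ± 0.27 (adjusted p = 1). Fasn differed by 0.22 ± 0.29 and Insig1 by 0.21 ± 0.32, with an adjusted p of 1 for both, and Insig1 by -0.06 without replicate 2 of 18-81 with miR-125b. The groups did not overlap in 3 of the 31 genes, Fdps, Fasn and Scd1, beside 13.2% of all genes. Averaged over both lines the smallest p-values were for Mvd at 0.36 ± 0.25, Idi1, the isopentenyl isomerase, at -0.38 ± 0.31 (-0.66 to -0.10 with 1 array left out) and Nsdhl at 0.28 ± 0.23, each with an adjusted p of 1.

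Between the lines, the response of Scd1 differed the most by p-value. It was 0.36 in 70Z/3 and -0.37 in 18-81, where both replicate pairs were positive in the first (0.09 and 0.63) and negative in the second (-0.42 and -0.31). The difference of -0.73 ± 0.38 had an adjusted p of 0.933, as had those of Nsdhl (-0.79 ± 0.46) and Ebp (0.90 ± 0.64). The 3 lists of further pathway genes held no called gene in any of the 4 comparisons and no gene with an unadjusted p under 0.05.

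Replicate 2 was also compared with replicate 1 over the 4 groups, a comparison added after the data were seen. In limma 12 of the 31 genes passed, where 25.6% of all genes did, with 7 higher on the replicate 2 arrays (19.5% of all genes) and 5 lower (6.09% of all genes). The median of the 31 genes was 0.16, beside 0.20 for all genes, and 15 of 31 were above that median. Of the 7 higher genes 6 lie in the sterol branch, which holds 18 of the 31, and of the 5 lower ones 3 are fatty acid genes. The branch medians were 0.26 for the 18 sterol genes and 0.09 for the 8 fatty acid genes. A split between the branches was not tested, and the called genes are listed next by role.

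In the sterol branch Sc5d, a sterol desaturase, was higher by 0.94 ± 0.14 (adjusted p = 0.0269), with relative levels of 3.18 to 3.63 on the replicate 1 arrays and 4.31 to 4.49 on the replicate 2 arrays. Hmgcs1 was higher by 0.88 ± 0.19 (adjusted p = 0.0309), at 5.40 to 5.83 and 6.19 to 6.70. Both genes kept the replicates apart in every group. Stard4 was higher by 0.82 ± 0.21, Msmo1, a sterol methyl oxidase, by 0.74 ± 0.14, Ebp by 0.70 ± 0.16 and Idi1 by 0.64 ± 0.16, with adjusted p of 0.028 to 0.0415. Lower in this branch were Lss, the lanosterol synthase, at -0.70 ± 0.18 (adjusted p = 0.0389) and Acat2 at -0.57 ± 0.15 (adjusted p = 0.0393).

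In the fatty acid branch Elovl6 was lower by the largest margin (-1.32 ± 0.29; adjusted p = 0.0312). Its gap was -1.88 and -2.04 in the 2 groups of 18-81 and -0.50 and -0.84 in those of 70Z/3. Fads2 (-0.85 ± 0.20; adjusted p = 0.0341) and Fads1 (-0.64 ± 0.14; adjusted p = 0.0293) were lower in all 4 groups, and Acly was higher (0.53 ± 0.13; adjusted p = 0.0389). None of the 5 regulators passed. Scap, at 0.47 ± 0.15 (adjusted p = 0.0629), had the smallest p among them, and Insig1 differed by 0.00 ± 0.20.

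**Figure D5:**
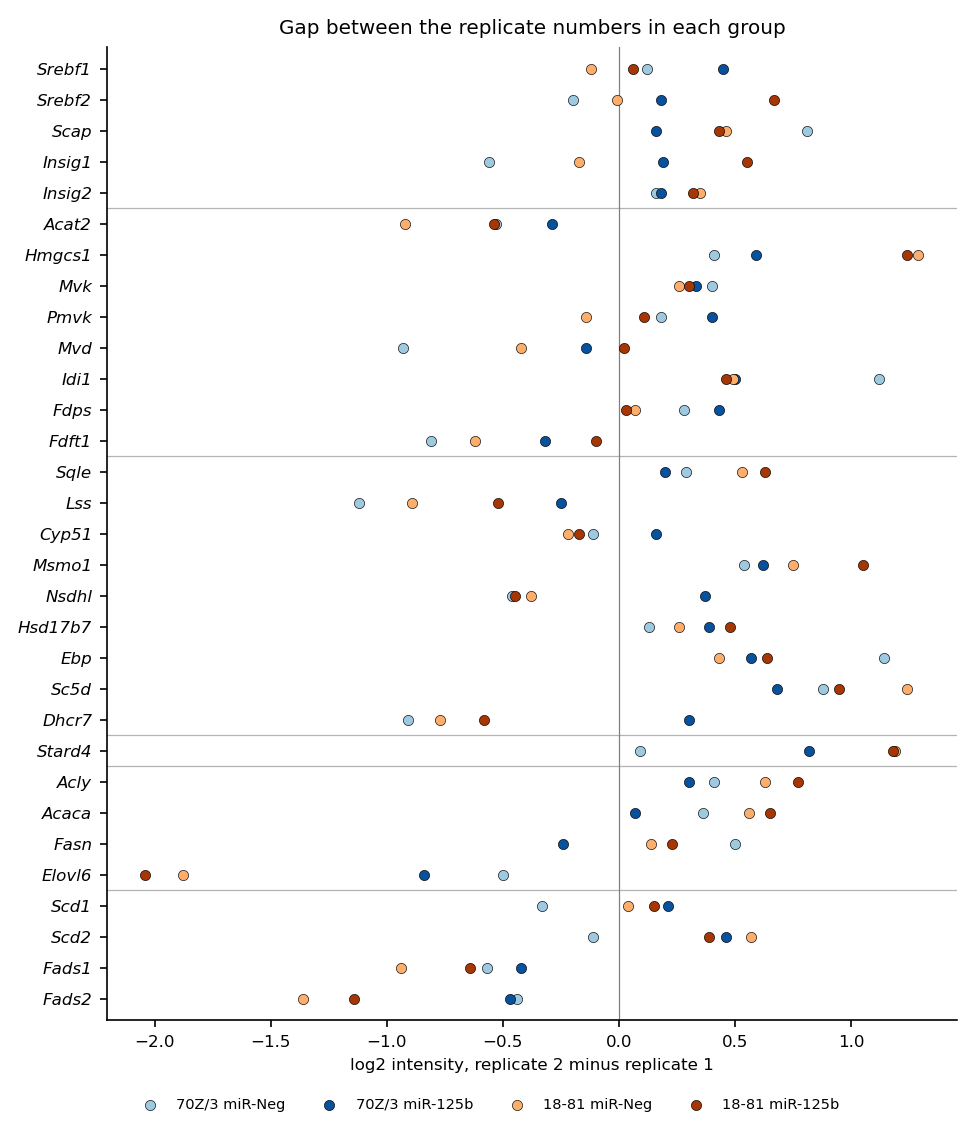
Gap between the 2 arrays of each group, replicate 2 minus replicate 1 on the log2 scale, for the 31 genes. All 4 groups lie on the right for 14 genes, among them Hmgcs1, Sc5d and Msmo1, and on the left for 6, among them Elovl6, Fads1 and Fads2.

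The gap had 1 sign in all 4 groups for 20 of the 31 genes, 14 higher (37.9% of all genes) and 6 lower (12.5% of all genes). Some probes of 1 gene went opposite ways. The second Nsdhl probe gave 0.54 where the first gave -0.23, and Acaca and Mvk each had probes of both signs. The number of calls depended on the scaling. After quantile normalization 5 genes passed (10.5% of all genes), with Sc5d higher and Lss, Elovl6, Fads1 and Fads2 lower. With any 1 array left out, most of the 12 calls were lost, and in most of these fits all were. The share of all genes that passed was also smaller in each fit. The directions of the 12 genes held in those fits, with Elovl6 at -1.59 to -1.07.

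Within 70Z/3 and within 18-81 taken alone none of the 31 genes passed in limma and none of all genes did (0%), with 8 and 12 of the 31 at an unadjusted p under 0.05 (27.2% and 32.8% of all genes). In 18-81 Elovl6 differed by -1.96 ± 0.19 (adjusted p = 0.0568). With a normexp correction 10 genes passed there (19.7% of all genes), and among probes above background on all 8 arrays 9 did (18.4%). The gap of Elovl6 differed between the lines by -1.29 ± 0.26 (adjusted p = 0.462), that of Fads2 by -0.80 ± 0.25 and that of Hmgcs1 by 0.76 ± 0.24 (adjusted p = 0.551 for both). At an unadjusted p under 0.05 there were 3 of the 31 genes, beside 7.88% of all genes. Replicate number, slide row and array brightness cannot be told apart here, and what they share with the 2 experiments is not given in the labels.

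Among the further pathway genes the same comparison gave 1 call of 10 efflux genes, Apoe, a lipid carrier (-1.74 ± 0.20; adjusted p = 0.0269). Of 24 fatty acid and lipid genes 6 were higher and 2 lower, led by Acsl4, an acyl-CoA synthetase (0.77 ± 0.14; adjusted p = 0.0277). In this comparison 19.5% of all genes were called higher and 6.09% lower. Within 18-81 the gap of Apoe was -1.74 and that of Elovl6 -1.96.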

How the data were processed

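The authors' 8 one-colour arrays carry intensity values from Agilent Feature Extraction 10.7.3.1, and the probe positions in the deposited files are on mm9, per the file headers. The deposited processed intensity is background-subtracted, per the file headers. Control and outlier spots (140 to 203 per array) were left out and no spot was saturated. The log2 of this intensity was scaled by subtracting each array's 75th percentile, and the number of arrays limits their precision. Testing required the 2 arrays of some group to be well above background for a probe, and the brightest such probe stood for its gene. Names came from RefSeq accessions, so that Sc4mol became Msmo1.

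limma 3.58.1 in R 4.3.3 fitted 4 group means to all 8 arrays (prior degrees of freedom 3.81, prior standard deviation 0.354), with Benjamini-Hochberg adjustment at 0.05, two-sided. It was tested on simulated data with independent noise on each array, a setting without the shared replicate gaps of the real arrays. The gaps between replicates 1 and 2 correlated between groups at r = 0.37 to 0.65, so the replicate number was tried as a block. The deposited series table, linear intensity scaled between arrays by a method not given in the sources used here (column medians 14.64 to 14.71), was an alternative. The 31 genes, the lists and the replicate comparison were chosen with earlier results of these data known. Named were members past the threshold, otherwise the 3 smallest p-values, and at most 4 called genes of each further list by p-value. Acacb, beyond that limit, and those said to be looked up later were named in addition. Some genes of the further sterol list are not reported here.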

Additional observations from a re-analysis of the deposited data

How the results depend on the processing

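Counts among the 31 genes moved by over 1.5 times as follows, with the percentage of all genes called in the same fit in brackets. Between the lines with both duplexes averaged, 4 genes passed (31.9%). Against this, 8 passed with normexp (33.2%), 2 with no filter on dim probes (14.6%) and 14 with the replicate block (48.1%). With miR-Neg 0 passed (21.7%), against 4 with normexp (20.9%), 2 with quantile normalization (24.2%) and 2 in the authors' series table (24.2%). An intensity trend gave 1 (22.2%) and the replicate block 8 (36.2%). With miR-125b 2 passed (21.3%), against 0 with no filter (9.49%). Probes above background on all 8 arrays gave 1 (11.8%) and the replicate block 5 (36.3%). For replicate 2 against 1, 12 passed (25.6%), against 5 with quantile normalization (10.5%) and 5 in the series table (10.5%). Within 18-81 0 passed (0%), against 10 with normexp (19.7%) and 9 among probes above background on all 8 arrays (18.4%). Leaving out 1 array also moved the counts of the line comparisons and of replicate 2 against 1 over the 4 groups. Among the 31 genes the response to miR-125b had 0 calls under every alternative run, the replicate block among them. Of all 18771 genes, 1 passed in 70Z/3 with normexp and 1 with a replicate block within each line (0.00533% each). Genes outside the 31 also passed in some fits with 1 array left out, which leave a group with a single array. Of the single genes named, Insig1 in 18-81 changed sign (-0.06) without replicate 2 of 18-81 with miR-125b, in a range of -0.06 to 0.49 with 1 array left out. The cause of these changes was not tested, other than that no filter adds genes to the adjustment and leaving out an array removes data. With 2 arrays a group, only large differences can pass: in 70Z/3 the 95% interval of the response to miR-125b lay within 2-fold for 13 of the 31 genes, and for 22 with the replicate block.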
